A study of Mus musculus with 8 samples.

Results

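Stromal cells that carry FAP (fibroblast activation protein), a surface protease of the dipeptidyl peptidase family, were compared with mouse embryonic fibroblasts (MEFs) that lack it. The FAP+ side held 6 of the 8 libraries, 2 each from skeletal muscle, visceral fat and the pancreas (an epithelial organ, where the other two are mesenchymal), with the cells sorted by flow cytometry straight from the dissociated tissue. The other side held 2 libraries of embryonic cells that had been sorted as FAP-, cultured for 3 passages and sorted again for the absence of FAP. The labels call the pancreas sample pancreatic stellate cells, give no strain or age, name no treatment, and describe the numbered libraries of a group as biological replicates, isolated in separate experiments. Freshly sorted tissue cells were thus set against cultured embryonic cells, so FAP status, embryonic origin and culture cannot be told apart in any difference reported here. The members described are genes whose levels were uniform over the 6 FAP+ libraries and different from MEFs: 331 genes, 249 higher and 82 lower, of 14847 tested.

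FAP+ stromal cells are resident fibroblasts and related perivascular cells. They make the interstitial matrix and the basement membrane that surrounds vessels and parenchyma, and they present growth factors, chemokines and complement proteins to neighbouring cells. In adult tissue such cells divide rarely. MEFs in early passages divide, spread on plastic and form contractile actin bundles, and they are the common reference for fibroblasts in culture. A gene held at 1 level by fibroblasts of unlike organs and at another by MEFs can therefore belong to the shared identity of the resident cell or to the state of the culture, and the comparison shows only the level.

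Levels are estimated fragments after scaling of every library to 1 common total (CPM), and differences are on the log2 scale, the equally weighted mean of the 3 tissues minus the mean of MEFs. Calls required a Benjamini-Hochberg adjusted p below 0.05 in edgeR's quasi-likelihood test over all genes, fitted on all 8 libraries with 4 group means, and every ± beside a log2 difference is its standard error. A gene was termed uniform where the highest of the 6 FAP+ libraries lay at most 2-fold above the lowest, at a mean of at least 5 CPM. Libraries held 15516319 to 27759399 fragments, and 1 gene, the actin-severing protein gelsolin (Gsn), took 10.9% to 17.8% of them in FAP+ cells. This is a share of bias-adjusted fragments, of which Gsn had 4.96 to 10.7 per whole read recovered from the authors' RPKM table. Decorin (Dcn) had 0.762 to 1.84 in the same libraries. The first adipose library stood apart: among 9790 genes at 5 CPM or more it was the highest or the lowest of the 6 in 69.0%, where the other FAP+ libraries were so in 23.0% to 34.2%. Its TMM scaling factor was 0.516, against 0.889 to 1.13 in the rest of the FAP+ side and 1.31 in both MEF libraries. Fap, on which the cells had been sorted, lay at 28 to 107 CPM in FAP+ cells (median 60.5) and 2.37 and 0.516 CPM in MEFs (log2 5.30 ± 0.61, adjusted p = 0.000317), with a 3.81-fold range that kept it out of the uniform class.

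Of the genes tested, 54.4% were called between FAP+ cells and MEFs, 27.8% higher and 26.6% lower, so a call by itself was common. Among the 9790 genes at 5 CPM or more, 3799 (38.8%) were uniform. Of these 24.3% were called higher and 31.1% lower, whereas of the 5991 genes with a wider range 31.2% were called higher and 20% lower. Differences of 4-fold or more were rarer among uniform genes: 249 were higher, 6.55% of uniform genes against 18.3% of those with a wider range, and 82 were lower, 2.16% against 4.07%. Over all genes tested, calls of 4-fold or more made up 16.4% higher and 8.76% lower, and the uniform ones 1.68% and 0.552%. A gene near 0 in FAP+ cells cannot be uniform by this definition, and 974 of the 1300 genes lower by 4-fold or more were under 5 CPM there. Of the remaining 326, 25.2% were uniform, and of the 1346 higher genes at 5 CPM 18.5% were.

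**Figure D1:**
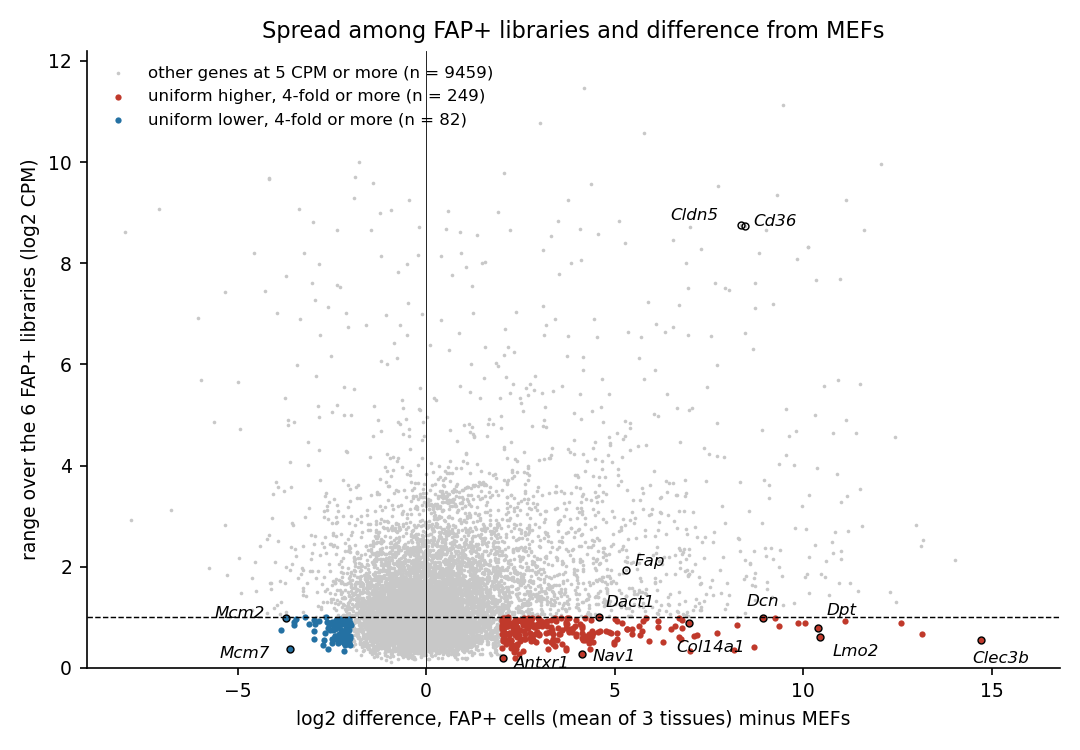
Each point is a gene at 5 CPM or more over the FAP+ libraries (n = 9790), placed by its log2 difference from MEFs (horizontal) and by its range over the 6 FAP+ libraries in log2 CPM (vertical). The 249 uniform genes higher than MEFs by 4-fold or more (red) run out to Clec3b at log2 14.71, while the 82 lower ones (blue) end at a 14.5-fold difference. Genes under 5 CPM in FAP+ cells are not drawn, which limits how far the lower side can reach. The dashed line marks a 2-fold range.

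The spread of differences was unequal on the 2 sides, as the plot of range against difference shows, and the definition of the class contributes to this. It needs a mean of 5 CPM in FAP+ cells and sets no such floor in MEFs, so it limits how far lower genes can reach. Of the uniform higher genes 122 differed by 8-fold or more, 74 by 16-fold or more and 29 by 64-fold or more, whereas 8 uniform lower genes reached 8-fold and the most distant differed 14.5-fold. Over all genes tested 10.6% differed among the 3 tissues (edgeR's F test on 2 contrasts, adjusted p below 0.05). Another 751 uniform genes lay within log2 0.25 of MEFs. Without the first adipose library 455 genes were uniform and higher and 133 uniform and lower, including 235 of the 249 and 71 of the 82. All 331 genes stayed called when any library was left out. With no scaling beyond library totals 127 uniform genes were higher and 73 lower, and the median over all genes moved from log2 0.03 to -0.48. The split of all calls moved with it, from 4126 higher and 3947 lower to 2789 and 5198, and to 2494 and 6254 in limma on log2(FPKM + 1).

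The uniform genes furthest above MEFs included 2 secreted proteins that bind matrix or protease precursors, a lipid enzyme and a transcription cofactor. Clec3b, the gene of tetranectin, a secreted C-type lectin that binds plasminogen, lay at 2217 to 3239.9 CPM in FAP+ cells (median 2447) and 0.180 and 0 CPM in MEFs, where the MEF libraries held 6 fragments together. All 6 FAP+ values stood within 1.46-fold of each other (log2 14.71 ± 0.97, adjusted p = 2.72e-05). Dpt, which encodes the collagen-binding matrix protein dermatopontin, lay at 1500.1 to 2602 CPM in FAP+ cells (median 1896) and 1.89 and 1.03 CPM in MEFs (log2 10.39 ± 0.53, adjusted p = 1.26e-05). In fragments adipose libraries were the highest and muscle libraries the lowest for both genes. In reads that order held for Dpt, whereas for Clec3b the first adipose library was the lowest, at 1489 CPM against 2231 to 2661 in the other FAP+ libraries. Pla1a, a phosphatidylserine-specific phospholipase, lay at 379 to 699 CPM in FAP+ cells (median 468) and 0.600 and 0.334 CPM in MEFs (log2 10.05 ± 0.46, adjusted p = 1.06e-05). Lmo2, a LIM-domain transcription cofactor best known from blood and endothelium, lay at 248 to 379.6 CPM in FAP+ cells (median 300.4) and 0 and 0.425 CPM in MEFs (log2 10.45 ± 1.01, adjusted p = 0.000134). In these 4 genes the range also stayed under 2-fold in whole reads recovered from the authors' RPKM table, at 1.79, 1.63, 1.65 and 1.44-fold in that order.

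**Figure D2:**
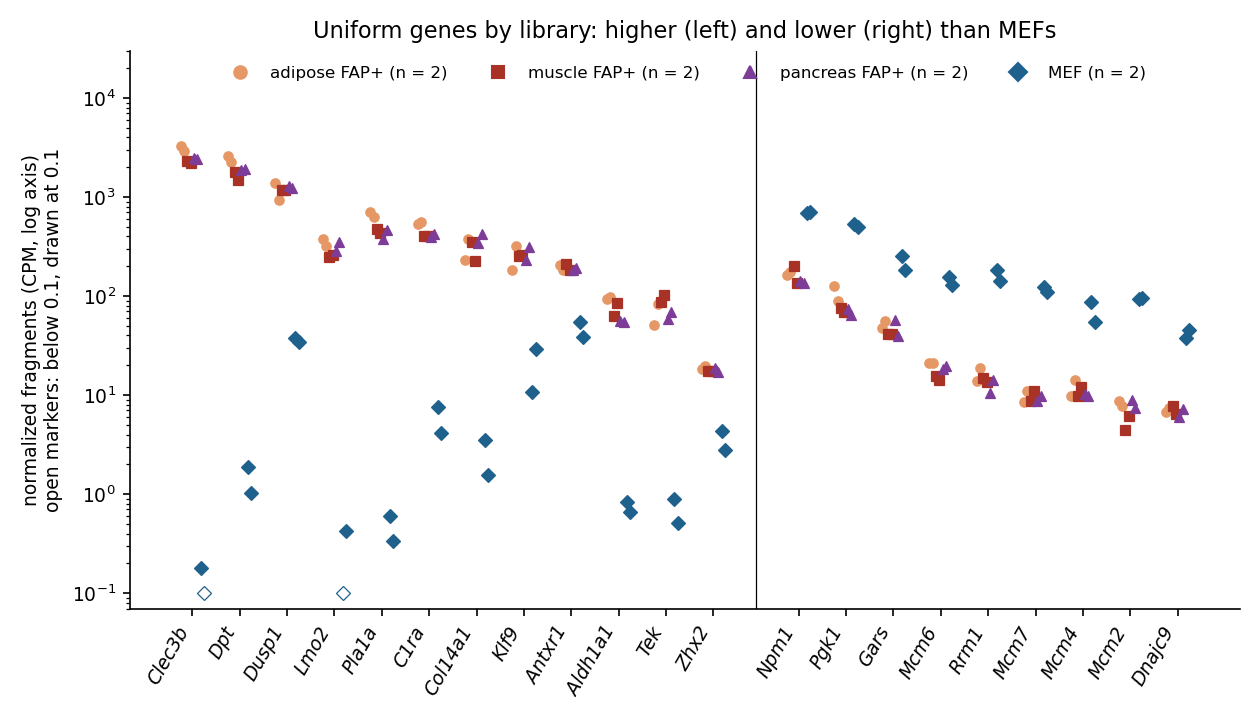
Normalized fragments (CPM, log axis) of 12 uniform genes higher than MEFs (left) and 9 lower (right) in each of the 8 libraries, with symbols for the tissue and open symbols for values under 0.1 CPM. The genes were chosen as uniform and 4-fold or more from MEFs, so the 6 FAP+ values lie within 2-fold by definition. The 2 MEF values lie clear of them in all 21 genes, as in all 249 uniform higher and 82 uniform lower genes. That separation, too, is largely fixed by the choice and is no separate result. Over all genes tested, 28.2% stood above both MEF libraries in all 6 FAP+ libraries and 28% below both.

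The promoter of Dpt is shown because the gene was among the most abundant uniform ones far above MEFs. The sequence is RefSeq's (GRCm38.p6, chr1:164796413-164796692, plus strand, from 250 bases before to 30 bases after the annotated start). Capitals mark the TATA box letters TATAAA, which lie at 13 bases after that start. These letters stood in 6.84% of uniform higher promoters, against 7.49% of tested genes, and whether they act as a TATA box was not tested.
Dpt: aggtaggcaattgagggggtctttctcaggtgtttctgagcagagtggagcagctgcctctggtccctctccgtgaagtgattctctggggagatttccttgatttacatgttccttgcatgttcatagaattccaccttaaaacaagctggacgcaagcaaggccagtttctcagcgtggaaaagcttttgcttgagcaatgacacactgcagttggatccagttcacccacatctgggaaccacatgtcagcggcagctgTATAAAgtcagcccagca
Neither a CCAAT box nor either of the E2F letters searched, TTTCCCGC and TTTGGCGC, was found in this window on either strand.

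Other genes far above MEFs were uniform in fragments and not in recovered reads. Ccl11, the eosinophil chemokine eotaxin, lay at 252 to 400.4 CPM in FAP+ cells, and the MEF libraries held 2 fragments together, a ratio of 10763 (95% counting interval 2979 to 88872). Its range was 1.59-fold in fragments and 5.17-fold in reads, where the first adipose library was the highest. Tnxb, the matrix glycoprotein tenascin-X, whose locus overlaps a pseudogene of Cyp21a2, lay at 1249 to 2306 CPM in FAP+ cells (median 1439) and 0.180 and 0.304 CPM in MEFs (log2 12.60 ± 0.54, adjusted p = 1e-05), with a range of 1.85-fold in fragments and 5.96-fold in reads. Entpd2, an ectonucleotidase of perivascular fibroblasts, lay at 364 to 689 CPM in FAP+ cells (median 499) and 0.360 and 0.0911 CPM in MEFs (log2 11.10 ± 0.66, adjusted p = 2.11e-05) with ranges of 1.89 and 2.32-fold. Dcn, the collagen-binding proteoglycan decorin, lay at 11081 to 21787 CPM in FAP+ cells (median 16903) and 42.6 and 22.7 CPM in MEFs (log2 8.93 ± 0.58, adjusted p = 2.6e-05), and its range was just inside 2-fold in fragments (1.97) and outside in reads (2.30). Islr2, a leucine-rich repeat membrane protein, and Slc6a13, a GABA and taurine transporter, differed by log2 9.25 ± 0.50 and by a ratio of 909.7 (95% counting interval 163 to 35932, 1 fragment in MEFs). Both exceeded a 2-fold range in reads, at 2.79 and 3.83-fold.

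The genes held most evenly were not those with the largest differences. Zhx2, a zinc finger and homeobox repressor, had a range of 1.15-fold: 17.1 to 19.7 CPM in FAP+ cells (median 18.0) and 4.32 and 2.79 CPM in MEFs (log2 2.35 ± 0.26, adjusted p = 0.000259). Antxr1, the collagen-binding receptor also known as tumour endothelial marker, lay at 182 to 209 CPM in FAP+ cells (median 188) and 54.6 and 38.2 CPM in MEFs (log2 2.05 ± 0.25, adjusted p = 0.000434), a range of 1.15-fold. Nav1, a microtubule-associated neuron navigator, lay at 336 to 404 CPM in FAP+ cells (median 350.04) and 13.4 and 27.7 CPM in MEFs (log2 4.13 ± 0.39, adjusted p = 0.000124). Porcn, the acyltransferase that lipidates Wnt proteins, differed by log2 2.33 ± 0.23 with a range of 1.25-fold. For these 4 genes the range in reads was 1.13, 1.21, 1.51 and 1.76-fold. Coro7, an actin-binding Golgi protein, had a range of 1.21-fold in fragments and 3.40-fold in reads, and it shares its locus with Vasn. Uniformity carried over between libraries in part. Of 5152 genes within 2-fold over the first library of each tissue, 93.3% were within 2-fold over the second libraries. The share was 80.2% of all 9733 genes at that level, which include the chosen ones, and 65.5% of those not chosen. Chosen on the second libraries, 61.3% of 7905 genes were within 2-fold over the first ones, which include the first adipose library. Here the share was 53.1% of all 9809 and 18.6% of those not chosen.

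Receptors through which stromal cells read their surroundings were mostly higher in FAP+ cells. Of 25 surface receptors 19 were called higher and 2 lower, where 27.8% and 26.6% of all genes were, with a median of log2 2.52 against 0.03 over all genes. Uniform ones at 4-fold or more were Lrp1, Tgfbr2, Pdgfra and Lifr. Pdgfra, the receptor for platelet-derived growth factors that marks fibroblasts, lay at 347 to 686 CPM in FAP+ cells (median 547) and 82.4 and 50.5 CPM in MEFs (log2 2.97 ± 0.40, adjusted p = 0.000608). Tgfbr2, the type II TGF-beta receptor, lay at 538 to 847 CPM in FAP+ cells (median 695) and 162 and 96.2 CPM in MEFs (log2 2.42 ± 0.32, adjusted p = 0.000606), whereas its partner Tgfbr1 did not pass the test (log2 0.05 ± 0.24, adjusted p = 0.868). Lifr, which binds leukaemia inhibitory factor, differed by log2 3.08 ± 0.30, and its ligand Lif was uniform and higher too, at 11.7 to 22.8 CPM against 5.34 and 4.98 CPM (log2 1.62 ± 0.20, adjusted p = 0.000472). Their common signalling chain Il6st was uniform and higher by less than 4-fold (log2 0.99 ± 0.26, adjusted p = 0.0131). Lrp1, an endocytic receptor, differed by log2 2.83 ± 0.28, with a range of 1.46-fold in fragments and 2.37-fold in reads. Pdgfrb was uniform at 248 to 448 CPM in FAP+ cells (median 318) and 134 and 91.8 CPM in MEFs (log2 1.53 ± 0.29, adjusted p = 0.00343). The 2 receptors lower than in MEFs (1 without either MEF library) were the integrin chain Itgb1 (log2 -1.26 ± 0.46) and the ectonucleotidase Nt5e (log2 -2.81 ± 0.25), which ranged 95.32-fold over the FAP+ libraries.

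Transcription factors were mostly called higher, and few were uniform. Of 27 fibroblast transcription factors 16 were called higher and 3 lower, where 27.8% and 26.6% of all genes were. Of the 26 at 5 CPM or more 5 were uniform, where 38.8% of all genes at that level were. Among these 5, Klf9 and Ebf1 differed by 4-fold or more. Klf9, a Kruppel-like factor induced by glucocorticoid and thyroid hormones, lay at 183 to 318 CPM in FAP+ cells (median 256) and 10.9 and 29.0 CPM in MEFs (log2 3.70 ± 0.50, adjusted p = 0.000667). Ebf1, a factor of the adipocyte and B-cell lineages, was named after its values were seen, at 83.3 to 155 CPM in FAP+ cells (median 125) and 5.94 and 12.9 CPM in MEFs (log2 3.71 ± 0.42, adjusted p = 0.000278). The nuclear factor I genes Nfic (log2 1.86 ± 0.32, adjusted p = 0.00209) and Nfix (log2 1.99 ± 0.71, adjusted p = 0.0455) were uniform and differed by under 4-fold, and Nfix lay at 108 and 802 CPM in the 2 MEF libraries, a spread wider than that among FAP+ cells. Osr1, a zinc finger factor of connective tissue progenitors, was uniform at 88.8 to 170.1 CPM against 33.4 and 36.8 CPM (log2 1.94 ± 0.30, adjusted p = 0.00132). Prrx1 (log2 -0.87 ± 0.29), Foxp1 (-1.20 ± 0.43) and Tbx15 (-5.33 ± 0.23) were the 3 lower ones, of which 1 remained lower without MEF replicate 1, without MEF replicate 2 or without pancreas, and Tbx15 ranged 172-fold over the tissues. Of 25 nuclear receptors 17 were higher and 2 lower, and 11 were higher without MEF replicate 1. Uniform among them were the thyroid hormone receptors Thra at 141 to 189.9 CPM against 9.0 and 21.7 CPM (log2 3.42 ± 0.40, adjusted p = 0.000325) and Thrb at 6.25 to 11.8 CPM against 1.44 and 2.40 CPM (log2 2.32 ± 0.32, adjusted p = 0.000761), the fatty acid receptor Ppara (log2 4.22 ± 0.39, adjusted p = 0.00011, named after its values were seen), and, by under 4-fold, the oxysterol receptor Nr1h2 (log2 1.42 ± 0.22) and the retinoid partner Rxrb (log2 0.71 ± 0.22). In reads the ranges were 3.65-fold for Thra, which overlaps Nr1d1 on the other strand, 2.70 for Thrb, 3.60 for Nr1h2 and 4.26 for Rxrb, and 1.34 for Ppara.

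Matrix genes were higher in FAP+ cells as a group. All 23 listed genes of the secreted fibroblast matrix were called higher, 21 of them by 4-fold or more, and 7 were uniform: Clec3b, Tnxb, Dpt and Dcn, described above, and Lum, Efemp1 and Igfbp4, whose ranges in reads were 2.26, 2.31 and 3.00-fold. Over the list the median difference was log2 3.94, and it was 3.43 with library totals only. Of 18 collagen chains 10 were higher and 3 lower. Col6a1 at 1443 to 2421 CPM against 411 and 290.3 CPM (log2 2.38 ± 0.31, adjusted p = 0.000569) and Col6a3 at 1764 to 2698 CPM against 575 and 489.95 CPM (log2 2.00 ± 0.29, adjusted p = 0.000933), chains of the microfibrillar collagen VI, were uniform. Col14a1, a fibril-associated collagen of adult connective tissue, lay at 227 to 419 CPM in FAP+ cells (median 346) and 3.54 and 1.58 CPM in MEFs (log2 6.98 ± 0.56, adjusted p = 5.91e-05). Col4a1, a basement membrane chain whose gene shares its start region with Col4a2, lay at 753 to 1484 CPM in FAP+ cells (median 1191) and 97.4 and 66.3 CPM in MEFs (log2 3.78 ± 0.33, adjusted p = 8.98e-05). The fibrillar chains Col5a1 and Col5a2 were uniform and did not pass the test (adjusted p = 0.134 and 0.5). The 3 lower chains were Col2a1, Col11a1 and Col12a1, of which the first pair belongs to cartilage. MEFs held 906 to 1372 CPM of 7 summed chondrocyte markers, among them Col2a1 at 1299 and 821 CPM, where the sum in FAP+ libraries was at most 31.8.

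Immune-related genes were higher in large numbers, few of them evenly. Of 16 genes of complement and plasma serpins 13 were higher and 1 lower, and C1ra, the protease of the first complement component, was uniform at 398 to 565 CPM in FAP+ cells (median 413) and 7.53 and 4.13 CPM in MEFs (log2 6.27 ± 0.40, adjusted p = 2.48e-05). Its near-identical neighbour C1rb could share reads with it. Pros1, the anticoagulant protein S, was uniform at 66.6 to 128 CPM against 54.1 and 29.8 CPM (log2 1.19 ± 0.36, adjusted p = 0.0242), while C3 ranged 7.02-fold. Of 19 antigen presentation and interferon-induced genes 18 were higher. The uniform ones were Tapbp (tapasin, which loads peptides onto class I molecules) at 354 to 680.1 CPM against 95.9 and 78.3 CPM (log2 2.55 ± 0.33, adjusted p = 0.000548), Ifit3, an interferon-induced RNA-binding protein, at 12.5 to 22.8 CPM against 1.47 and 1.03 CPM (log2 3.70 ± 0.30, adjusted p = 6.6e-05), and the class I light chain B2m (log2 1.84 ± 0.28, adjusted p = 0.00123), whose range was 4.06-fold in reads. Of 19 cytokines and chemokines 12 were higher and 5 lower, and Ccl11 and Lif, above, were the 2 uniform ones. Ccl2 and Ccl7, chemokines for monocytes, exceeded MEFs by log2 3.93 and 4.09 and ranged 32.96 and 42.89-fold over the FAP+ libraries.

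Growth factors were neither uniform nor shifted to 1 side. Of 20 growth factors and antagonists 5 were higher and 6 lower, near the shares of all genes, and 20 of 20 exceeded a 2-fold range. Their median was log2 0.12, and -0.35 with library totals only. Igf2, an imprinted growth factor of the embryo, lay at 4.73 to 36.3 CPM in FAP+ cells (median 16.2) and 3339 and 3056 CPM in MEFs (log2 -7.83 ± 0.29, adjusted p = 7.99e-06), and Gdf10, a relative of the bone morphogenetic proteins, at 70.6 to 914 CPM in FAP+ cells (median 165) and 1.77 and 0.971 CPM in MEFs (log2 7.43 ± 0.52, adjusted p = 3.36e-05). For detoxification and antioxidant enzymes, 13 of 25 were higher and 5 lower, and 3 were lower without either MEF library. Aldh1a1, a retinaldehyde dehydrogenase, was uniform at 55.2 to 97.7 CPM in FAP+ cells (median 73.9) and 0.840 and 0.668 CPM in MEFs (log2 6.59 ± 0.31, adjusted p = 1.13e-05). Sod3, the extracellular superoxide dismutase, was uniform at 137 to 266 CPM against 8.58 and 8.65 CPM (log2 4.37 ± 0.28, adjusted p = 2.48e-05) and mitochondrial Aldh2 at 641 to 997 CPM against 178 and 183 CPM (log2 2.07 ± 0.25, adjusted p = 0.000357). Catalase (Cat), uniform as well, was lower, at 35.8 to 48.4 CPM against 72.5 and 59.9 CPM (log2 -0.62 ± 0.19, adjusted p = 0.024).

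Genes that rise within minutes of tissue disruption moved with the comparison as a whole. Of 22 immediate early and dissociation genes, 22 were called higher in FAP+ cells, where 27.8% of all genes were. By 4-fold or more 21 of them were higher, against 16.4% of all genes, and the median was log2 4.79. Dusp1, a phosphatase that ends MAP kinase signals, was uniform at 938 to 1388 CPM in FAP+ cells (median 1201) and 37.5 and 34.1 CPM in MEFs (log2 5.07 ± 0.35, adjusted p = 3.34e-05). Fos lay at 1965 to 6169 CPM in FAP+ cells (median 5032) and 27.6 and 26.4 CPM in MEFs (log2 7.27 ± 0.45, adjusted p = 2.29e-05). Their part in the other differences was not tested. Klf9, too, stands in a list of growth arrest genes, of which 8 of 20 were higher and 4 lower, where 27.8% and 26.6% of all genes were. Fewer were higher without either MEF replicate. The median was log2 0.55 and turned to -0.14 in FPKM.

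Markers of other cells that a tissue sort can carry were mostly uneven over the tissues. The 10 endothelial markers summed to 841 and 852 CPM in adipose, 120 to 226 in muscle, 77.8 to 80.6 in pancreas and 34.3 to 36.1 in MEFs, and 8 of 10 were called higher. Tek, the angiopoietin receptor of endothelium, was the exception to that pattern, uniform at 51.6 to 102 CPM in FAP+ cells (median 76.2) and 0.900 and 0.516 CPM in MEFs (log2 6.69 ± 0.42, adjusted p = 2.47e-05), and the tissue with the highest endothelial sum was not its highest. The 12 macrophage markers summed to 61.3 to 126 CPM in adipose, 19.2 to 22.6 in muscle, 12 to 13 in pancreas and 6.09 to 7.29 in MEFs, with 7 of 9 tested higher, 4 without either MEF library and 2 when adipose tissue was left out. Erythroid transcripts summed to 134 to 1414 CPM in adipose, 70.2 to 111 in muscle and 1.09 to 1.66 in pancreas. Acinar enzymes reached 72.0 to 154 CPM in pancreas against at most 9.45 elsewhere in FAP+ cells. The 8 lymphocyte markers summed to at most 3.2 CPM in FAP+ libraries, and 8 of 8 were at 3 or fewer fragments in each MEF library. In libraries of whole populations, fewer cells of a type and less RNA per cell cannot be told apart. What such cells contribute to the uniform genes was not tested.

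On the lower side, the uniform genes included 4 of the 6 subunits of the MCM helicase. Of 26 genes of DNA replication and mitosis 25 were called lower in FAP+ cells, 23 of them by 4-fold or more, with a median of log2 -4.12 against 0.03 over all genes. E2f1, a transcription factor of the cell cycle, was uniform and did not pass (-0.38 ± 0.20, adjusted p = 0.138). Of the 26 genes 15 reached the mean of 5 CPM needed to be called uniform. The mitotic kinase Plk1 did not (2.81 to 4.46 CPM against 109.7 and 111 CPM), though it lay above the floor of 0.122 to 0.229 CPM. The subunits of the MCM helicase, which unwinds DNA at origins and is loaded before S phase, did reach it. Mcm5 did so narrowly, at 3.13 to 7.50 CPM in FAP+ cells, so in level little but the threshold parts Mcm5 from Plk1. Mcm2 lay at 4.46 to 8.91 CPM in FAP+ cells (median 7.61) and 92.7 and 94.6 CPM in MEFs (log2 -3.72 ± 0.19, adjusted p = 1.24e-05). Mcm6 lay at 14.2 to 21.1 CPM in FAP+ cells (median 18.9) and 155 and 129.9 CPM in MEFs (log2 -2.98 ± 0.17, adjusted p = 1.79e-05), Mcm7 at 8.61 to 11.1 CPM in FAP+ cells (median 9.29) and 124 and 111 CPM in MEFs (log2 -3.60 ± 0.19, adjusted p = 1.34e-05) and Mcm4 at 9.68 to 14.2 CPM in FAP+ cells (median 10.02) and 87.6 and 54.6 CPM in MEFs (log2 -2.70 ± 0.23, adjusted p = 8.51e-05). These 4 are named as members of the uniform class, so their 6 FAP+ values stood together by definition. In each the lower MEF value was several times the highest FAP+ value. Mcm3 and Mcm5 were also lower and ranged 2.35 and 2.36-fold. Rrm1, the large subunit of ribonucleotide reductase, lay at 10.4 to 18.7 CPM in FAP+ cells (median 14.1) and 184 and 141 CPM in MEFs (log2 -3.51 ± 0.21, adjusted p = 2.19e-05), and Incenp, a scaffold of the Aurora B kinase complex, at 3.95 to 7.47 CPM in FAP+ cells (median 4.55) and 55.1 and 56.9 CPM in MEFs (log2 -3.49 ± 0.17, adjusted p = 1.17e-05). Mcm7 shares its locus with Ap4m1 and a microRNA cluster, and its range in reads was 2.32-fold.

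Promoters of 3 MCM genes are printed because these genes were low together in every FAP+ library. They are RefSeq's first listed promoters (GRCm38.p6, from 250 bases before to 30 after the start), at chr6:88898751-88899030, minus strand, for Mcm2, chr1:128359676-128359955, minus strand, for Mcm6 and chr5:138171854-138172133, minus strand, for Mcm7. Capitals mark the CHR element TTTGAA, the CCAAT box CCAAT and the E2F letters TTTCCCGC or TTTGGCGC, each on either strand.
Mcm2: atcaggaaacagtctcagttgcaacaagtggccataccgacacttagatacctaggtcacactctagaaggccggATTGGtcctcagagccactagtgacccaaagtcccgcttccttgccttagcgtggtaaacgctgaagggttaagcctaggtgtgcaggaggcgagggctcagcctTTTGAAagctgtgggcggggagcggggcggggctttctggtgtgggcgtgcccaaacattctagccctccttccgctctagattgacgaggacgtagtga
Mcm6: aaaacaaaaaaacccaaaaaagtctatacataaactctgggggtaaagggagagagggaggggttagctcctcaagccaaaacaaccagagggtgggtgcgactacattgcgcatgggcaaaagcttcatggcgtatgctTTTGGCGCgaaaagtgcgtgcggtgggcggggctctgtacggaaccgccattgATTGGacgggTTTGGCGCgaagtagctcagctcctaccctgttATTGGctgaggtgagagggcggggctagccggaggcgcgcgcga
Mcm7: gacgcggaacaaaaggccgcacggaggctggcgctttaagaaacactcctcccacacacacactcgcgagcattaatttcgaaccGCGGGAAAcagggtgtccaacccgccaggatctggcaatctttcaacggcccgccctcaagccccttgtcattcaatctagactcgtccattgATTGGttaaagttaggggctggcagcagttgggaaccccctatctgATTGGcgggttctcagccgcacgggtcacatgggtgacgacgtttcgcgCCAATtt
Mcm6 held 2 matches to E2F and 2 to CCAAT in capitals, Mcm7 held 1 and 3, and Mcm2 held a CHR element and a CCAAT box. Over the 62 of 82 uniform lower genes with a promoter in the table, searched from 250 bases before to 50 after the start, 56.5% held a CCAAT box, against 36.8% of 190 uniform higher genes, 38.5% of tested genes and 37.9% of all 27025 promoters. E2F letters stood in 8.06%, against 1.58%, 2.96% and 1.63%. The CHR element stood in 14.5% and 13.2% of the uniform lower and higher promoters, against 11.9% of tested genes, and the GC box GGGCGG in 75.8% and 63.2%, against 62.9%. The AP-1 letters TGACTCA stood in 4.21% of uniform higher promoters, against 3.71% of tested genes. These shares are descriptions of letters and show no binding.

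Of 23 genes of chromatin maintenance 17 were lower and 4 higher, and without MEF replicate 1 or 2 the higher ones numbered 1 and 2. Dnmt1, the maintenance DNA methyltransferase, was uniform at 81.6 to 134 CPM in FAP+ cells (median 105) and 387 and 401 CPM in MEFs (log2 -1.91 ± 0.23, adjusted p = 0.000367), whereas the de novo enzymes Dnmt3a (log2 1.06 ± 0.27, adjusted p = 0.012) and Dnmt3b (log2 1.31 ± 0.25, adjusted p = 0.00352) were uniform and higher. Hdac2, a histone deacetylase, was uniform at 21.4 to 29.8 CPM against 98.8 and 61.4 CPM (log2 -1.59 ± 0.22, adjusted p = 0.000741). Ezh2, Suv39h1 and Chaf1a, histone methyltransferases and a histone chaperone named after their values were seen, were uniform and lower, with log2 differences of -2.62, -2.34 and -2.73. Outside that list, uniform lower genes with the largest differences or the smallest ranges included others of the nucleus. Dnajc9, a histone co-chaperone, had a range of 1.29-fold and lay at 5.94 to 7.72 CPM in FAP+ cells (median 7.03) and 38.0 and 45.9 CPM in MEFs (log2 -2.60 ± 0.19, adjusted p = 3.9e-05). Hat1, which acetylates new histones, lay at 8.62 to 11.9 CPM against 41.4 and 45.7 CPM (log2 -2.14 ± 0.19, adjusted p = 8.98e-05), Ints8, an Integrator subunit whose locus overlaps Ccne2, at 12.1 to 16.6 CPM against 74.5 and 40.1 CPM (log2 -2.01 ± 0.25, adjusted p = 0.000404), and Ncapd2, a condensin subunit, at 9.95 to 16.5 CPM against 103 and 93.5 CPM (log2 -2.97 ± 0.22, adjusted p = 4.38e-05). Aaas, a nuclear pore protein, differed by log2 -3.11 ± 0.18. Kif20a, a mitotic kinesin whose locus overlaps Brd8 and Cdc23, differed by log2 -3.86 ± 0.20 in fragments and -5.31 in reads.

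Biosynthetic genes were mostly lower, and those of amino acid synthesis and tRNA charging were comparatively even. Of 20 genes of amino acid synthesis and tRNA charging 17 were lower and 1 higher, 12 were uniform and 5 of these lower by 4-fold or more. Phgdh, the first enzyme of serine synthesis, lay at 20.1 to 39.5 CPM in FAP+ cells (median 26.6) and 283 and 315 CPM in MEFs (log2 -3.44 ± 0.22, adjusted p = 2.65e-05), and the mitochondrial folate enzyme Mthfd2 at 6.86 to 13.8 CPM in FAP+ cells (median 8.92) and 95.1 and 75.1 CPM in MEFs (log2 -3.20 ± 0.19, adjusted p = 2.19e-05), with ranges in reads of 4.32 and 2.12-fold. Among enzymes that charge tRNAs, Gars (glycine) lay at 40.0 to 56.9 CPM in FAP+ cells (median 44.4) and 253 and 181 CPM in MEFs (log2 -2.21 ± 0.22, adjusted p = 0.000145) and was within 2-fold in reads as well. Aars (-1.43 ± 0.20), Mars (-1.69 ± 0.20) and Sars (-1.60 ± 0.26), for alanine, methionine and serine, were uniform and lower on the log2 scale by under 4-fold, with ranges in reads of 1.92, 3.47 and 3.27-fold. Atf4, the transcription factor that induces many of these genes, was the higher one (log2 0.87 ± 0.24, adjusted p = 0.0178), a call lost when either MEF library was left out. Of 20 ribosome biogenesis genes 16 were lower. Uniform were 6 of the 20, a share below the 38.8% of all genes at 5 CPM. Npm1, the nucleolar chaperone nucleophosmin, was uniform at 135 to 202 CPM in FAP+ cells (median 154) and 686 and 712 CPM in MEFs (log2 -2.14 ± 0.21, adjusted p = 0.000163). Bop1, Ddx21 and Pes1 were uniform and lower, with log2 differences of -1.25, -1.27 and -1.42 and with ranges in reads of 4.02, 2.98 and 2.43-fold. Myc, their inducer in dividing cells, was the 1 higher gene of the list, at 477 to 2501 CPM in FAP+ cells (median 956) and 168 and 161 CPM in MEFs (log2 2.61 ± 0.31, adjusted p = 0.000345).

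**Figure D3:**
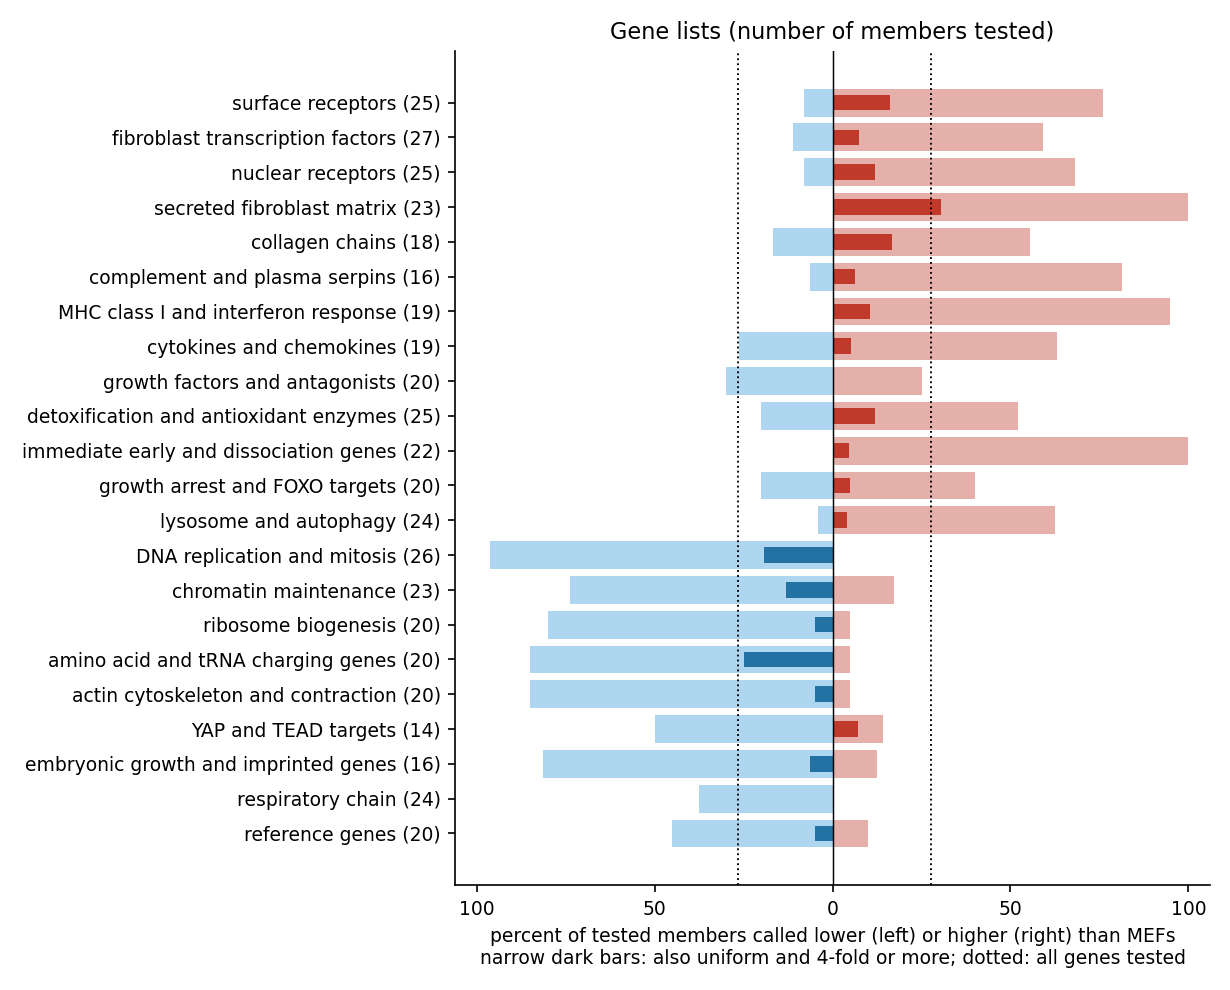
For each gene list (number of tested members in parentheses), pale bars give the percent of members called lower (left) and higher (right) than MEFs, and narrow dark bars the percent that were also uniform and different by 4-fold or more. Dotted lines mark the 26.6% lower and 27.8% higher over all genes tested. All 23 secreted matrix genes and all 22 immediate early genes were higher, and 25 of 26 replication genes were lower.

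Most genes of the contractile cytoskeleton were lower. Of 20 genes of actin and contraction 17 were lower and 1 higher (a call lost without either MEF library), and 3 were uniform: tropomyosin Tpm4 at 85.3 to 166 CPM in FAP+ cells (median 103) and 656 and 397 CPM in MEFs (log2 -2.27 ± 0.29, adjusted p = 0.000525), calponin Cnn3 at 95.1 to 161 CPM against 472 and 299 CPM (log2 -1.73 ± 0.24, adjusted p = 0.000801) and caldesmon Cald1 at 99.6 to 153 CPM against 233 and 259.6 CPM (log2 -1.03 ± 0.23, adjusted p = 0.00647). Acta2, the smooth muscle actin of myofibroblasts, lay at 12.8 to 50.4 CPM in FAP+ cells (median 19.6) and 1380.1 and 1163 CPM in MEFs (log2 -5.75 ± 0.26, adjusted p = 1e-05) with a range of 3.93-fold. Of 14 YAP and TEAD targets and regulators 7 were lower and 2 higher. Yap1 and Tead1 were uniform and lower (log2 -1.20 ± 0.24 and -1.48 ± 0.25), and Axl, a receptor kinase for Gas6, was uniform and higher, at 1296 to 2567 CPM in FAP+ cells (median 1982) and 475 and 449 CPM in MEFs (log2 2.10 ± 0.31, adjusted p = 0.00102). Gas6 itself was uniform at 178 to 296 CPM against 122 and 120.3 CPM (log2 0.91 ± 0.24, adjusted p = 0.0152). Of 16 embryonic growth and imprinted genes 13 were lower and 2 higher (1 higher without either MEF library). Igf2bp2, an mRNA-binding protein of embryonic tissue, was uniform at 6.81 to 11.5 CPM against 52.7 and 44.2 CPM (log2 -2.47 ± 0.18, adjusted p = 4.42e-05), and the imprinted noncoding RNA Meg3 was uniform and higher, at 4516 to 7769.6 CPM in FAP+ cells (median 6337) and 1779 and 3115 CPM in MEFs (log2 1.36 ± 0.39, adjusted p = 0.0191).

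Housekeeping functions gave smaller differences. Of 24 respiratory chain genes 9 were lower, where 26.6% of all genes were, and 10 were uniform, near the 38.8% of all genes at 5 CPM. Their median was log2 -0.41, and it was -0.98 with library totals only and -1.24 in log2(FPKM + 1). ATP synthase subunits Atp5b (log2 -1.50 ± 0.23, adjusted p = 0.00114) and Atp5a1 (log2 -1.55 ± 0.23, adjusted p = 0.000969) were uniform, as were Uqcrc1 (log2 -0.91 ± 0.21) and Sdha (log2 -0.69 ± 0.21). Without the first adipose library 16 of the 24 were lower. Of 20 reference genes often used to scale measurements 9 were lower and 2 higher. The glycolytic enzyme Pgk1 was uniform and lower at 64 to 128 CPM against 535 and 497 CPM (log2 -2.66 ± 0.21, adjusted p = 5.24e-05). Lysosomal and autophagy genes differed in the other direction, with 15 of 24 higher and 1 lower, and 14 of the 24 were uniform. The size of that difference depended on the scaling. Their median of log2 0.90 became 0.40 with library totals only and 0.15 in log2(FPKM + 1), where that of all genes moved from 0.03 to -0.48 and -0.44. Gaa, the acid glucosidase, lay at 421 to 568 CPM in FAP+ cells (median 501) and 149 and 126 CPM in MEFs (log2 1.86 ± 0.26, adjusted p = 0.0008), the cathepsins Ctsz and Ctsb differed by log2 1.49 ± 0.25 and 0.95 ± 0.26, and the autophagosome protein Map1lc3b by 0.86 ± 0.21. That list's count fell to 9 higher without MEF replicate 1 and 6 without MEF replicate 2. Ctsf, a cathepsin named after its values were seen, was the uniform member at 4-fold or more, of 4 list members higher by that much (log2 3.20 ± 0.23, adjusted p = 4.2e-05).

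Among the 133 named genes, calls of several uniform ones with differences under 4-fold did not hold in edgeR when 1 library was left out. Uniform genes outside the 133 are not listed here. Without MEF replicate 1 these were Nfix, Rxrb, Cat, Gas6, Map1lc3b, Dnmt3a, Dnmt3b, Meg3, Uqcrc1 and Sdha, and without MEF replicate 2 they were Rxrb, Pros1, Cat, Gas6, Ctsb, Map1lc3b, Dnmt3a, Cald1, Uqcrc1 and the stress gene Sesn1. Cat lost its call without either muscle or either pancreas library as well, as did Nfix and Sdha, and Rxrb and Pros1 without 3 and 3 of these 4, and Meg3 without the first pancreas library. The highest adjusted p over single omissions was 0.091 for Nfix, 0.18 for Cat, 0.151 for Rxrb, 0.179 for Pros1, 0.103 for Gas6, 0.0783 for Map1lc3b and 0.149 for Meg3. For Dnmt3a and Dnmt3b it was 0.127 and 0.0513, for Uqcrc1 and Sdha 0.0575 and 0.241, and for Ctsb, Cald1 and Sesn1 0.122, 0.0595 and 0.0665. The 1 lower call among lysosomal genes was lost without either MEF library, and of 4 lower growth arrest calls 2 were made without MEF replicate 2.

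Genes at the borders of the class show what the thresholds did. Just inside the 2-fold range were Mthfd2, above, the RNA editing enzyme Apobec1 at 7.66 to 15.4 CPM against 2.49 and 1.91 CPM and the Wnt regulator Dact1 at 135 to 270.3 CPM against 10.8 and 5.16 CPM. Just outside were Lgr4, a receptor for R-spondins, at 6.25 to 12.6 CPM against 52.3 and 35.2 CPM, the membrane protein Plxdc2 at 224 to 449 CPM against 56.9 and 50.3 CPM and the ubiquitin ligase subunit Cul9 at 18.2 to 36.5 CPM against 4.14 and 2.91 CPM, and the 6 ranges all round to 2.00. Uniform and level with MEFs were the collagen chaperone Serpinh1 at 4809 to 7437 CPM against 7247 and 6186 CPM (log2 -0.14 ± 0.27), the tetraspanin Cd63 (log2 0.20 ± 0.24), the cold shock protein Csda (-0.18 ± 0.24), Tcf25 (0.06 ± 0.22), the zinc transporter Slc39a7 (0.15 ± 0.23) and basigin Bsg (-0.16 ± 0.22). With library totals only these values moved down by about the shift of all genes, and the sign of Cd63, Tcf25 and Slc39a7 turned. At the other extreme, 4187 genes (28.2%) stood above both MEF libraries in all 6 FAP+ libraries with no regard to range, and 4162 (28%) below both. Among the higher ones the widest ranges belonged to the endothelial junction protein Cldn5 (0.676 to 332 CPM, range 435-fold), the fatty acid transporter Cd36 (0.730 to 348, 425-fold) and angiotensinogen Agt (0.987 to 408, 379.7-fold). Il1r2, Robo4 and Col6a5 ranged 313, 296 and 272-fold.

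Presence in FAP+ cells and near absence in MEFs was a separate property. At 10 CPM or more in all 6 FAP+ libraries and 3 or fewer fragments in each MEF library stood 21 genes, 3 of them uniform. They included Inmt, an indolethylamine methyltransferase, at 103 to 2437 CPM with 5 fragments in MEFs, and Abca8a, a lipid transporter, at 243 to 689 CPM, also with 5. Vtn, the adhesion protein vitronectin, lay at 85.9 to 212 CPM with 1 fragment in MEFs, a ratio of 7759.6 (95% counting interval 1393 to 306489). Dpp4, the relative of Fap, lay at 26.3 to 147 CPM with 3 fragments in MEFs, a ratio of 2153 (737 to 10441), and its range was 5.58-fold in fragments and 1.99-fold in reads. Sult5a1, a sulfotransferase, was at 44.4 to 194 CPM and at 0 fragments in MEFs, which makes it at least 1039.9-fold higher against a floor of 3 fragments per library. In the reverse direction 1 entry qualified, the microRNA gene Mir3091, at 0 fragments in FAP+ cells and 22.5 and 11.3 CPM in MEFs, and it overlaps the ribosomal protein gene Rps21, whose fragments may be counted in it.

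The deposited tables did not give 1 list of uniform genes. Fragments carry the authors' bias adjustment, and the RPKM table gave whole reads for 20965 genes. Of the 249 uniform higher genes 245 of 246 with reads were called in the same direction in reads, and 82 of 82 lower ones. Both tables come from the same 8 libraries, and the genes were chosen for a call of 4-fold or more in fragments. This agreement is therefore no independent check of the differences. Uniformity held less often: 142 of the 249 and 45 of the 82 were within 2-fold in reads. Where the range exceeded 2-fold in reads, the first adipose library was the highest or lowest in 94 of 104 higher and 32 of 37 lower genes. Uniform and different by 4-fold or more in both tables were 133 higher genes (53.4% of the fragment set and 46.0% of the 289 in reads) and 39 lower genes (47.6% and 38.2% of 102). Among uniform genes named above without their range in reads, it exceeded 2-fold for Col4a1 (2.06), Aldh2 (2.13), Osr1 (2.32), Gas6 (2.37), Gaa (2.09) and Ctsz (2.10). It did so too for Dnmt3b (2.28), Ezh2 (2.42), Chaf1a (3.11), Ncapd2 (2.68), Aaas (2.24), E2f1 (2.86), Tpm4 (2.19) and Igf2bp2 (2.71), and for Serpinh1 (2.86) and Slc39a7 (2.68), which were level with MEFs. In the first adipose library Gsn had 10.7 fragments per recovered read, against 4.96 to 6.37 in the other FAP+ libraries, and Dcn had 0.762, against 1.53 to 1.84. What in the adjustment or the library produced this was not tested.

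**Figure D4:**
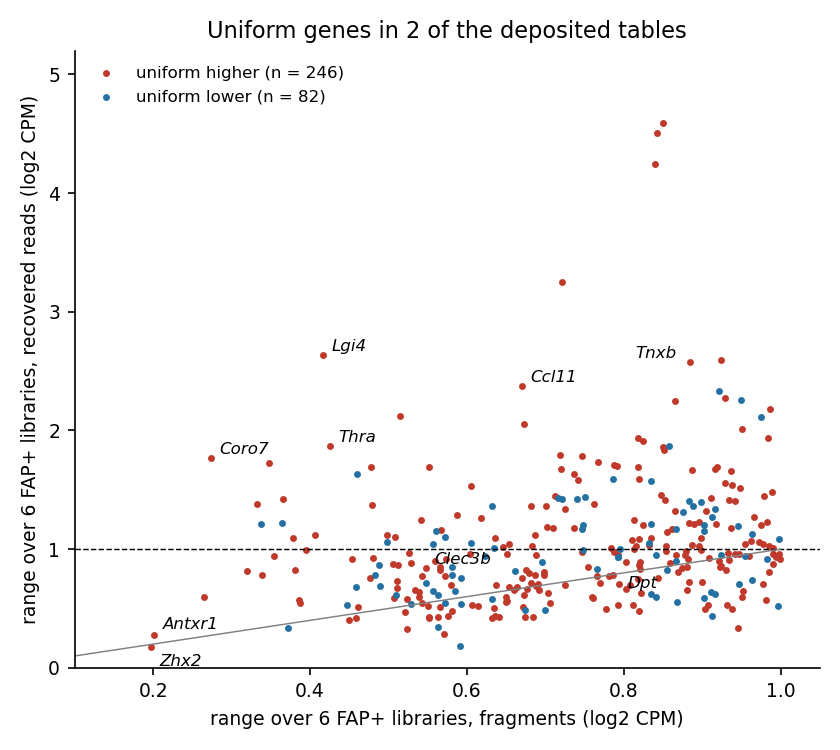
Range over the 6 FAP+ libraries in fragments (horizontal) and in recovered reads (vertical), both in log2 CPM, for the uniform genes with reads (246 higher in red, 82 lower in blue). The grey line marks equality and the dashed line a 2-fold range in reads, above which lie 104 higher and 37 lower genes, Ccl11 and Tnxb among them.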

How the data were processed

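RNA of sorted cells was amplified from its poly(A) tails and sequenced on Illumina libraries, per the labels' protocols. Per the submitters' processing notes, the tools were TopHat2, Bowtie2, HTSeq and edgeR and the mouse build was mm9, with versions not given in the sources used here. The strand setting and the program behind the bias adjustment are not given in the sources used here, so reads of overlapping genes cannot be told apart. The authors deposited bias-adjusted estimated counts of fragments and FPKM for 22558 genes and RPKM for 22609, per the file headers. Each table held 6 further columns that match no sample here and were not used.

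The deposited fragments were not whole, so they were rounded and tested with edgeR 4.0.16 (R 4.3.3) in place of whole counts: TMM scaling, filterByExpr on 4 groups (14847 genes kept), quasi-likelihood tests with Benjamini-Hochberg adjustment at 0.05, with 4 residual degrees of freedom. The biological coefficient of variation common to all genes was 33.2%. CPM are relative to the kept fragments after TMM scaling. The range used log2 CPM with a prior count of 2. RPKM values were whole multiples of 1 read for 20965 genes (100% whole within 0.01), 1644 had no usable step, and the reads were tested in the same way. Counting intervals and floors cover counting error only. P-values and standard errors measure the spread between replicate libraries within the 4 groups, so differences among the tissues do not enter them. A fit with 2 groups, FAP+ cells and MEFs, counts those differences as spread. It called 6387 genes, 3363 higher and 3024 lower, where the main fit called 8073. In it 121 of the 133 named genes kept direction and call, and 12 were weaker. Of the gene symbols 20439 were current, 1980 older ones and 190 matched none in RefSeq. Alternatives used limma 3.58.1 on log2 FPKM values with a pseudocount of 0.1 or 1, DESeq2 1.42.0, other scalings and filters, and fits without each library or tissue.

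The members and the gene lists were chosen with earlier results of these data known. Named genes were Fap and Dpp4, the 10 uniform genes furthest from MEFs and the 5 with the smallest range in each direction, up to 4 uniform called members of each list by level (otherwise up to 2 called members by fold), 3 genes on each side of the 2-fold border, and the 6 with the widest range, 6 level with MEFs and 6 nearly absent from 1 side. Predicted genes stay unnamed. List members named beyond that rule as examples or exceptions were chosen after their values were seen.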

Additional observations from a re-analysis of the deposited data

Results flagged for a closer look

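A few genes had 1 FAP+ library far from the other 5 by Dixon's test, which chance exceeds in about 1 of 20 groups. Dnmt3a reached 55.5 CPM and Sars 68.8 CPM in the first adipose library, the one that stood apart over all genes, and both stayed within the 2-fold range. Vtn reached 212 CPM in the second muscle library, against 85.9 to 112 CPM in the other FAP+ libraries.

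Genes whose difference from MEFs was unequal among the 3 tissues (edgeR's quasi-likelihood F test over all genes, adjusted p) were all outside the uniform class. The 2-fold limit on the range, set on the same values, largely fixes that in advance, and 0 of 3799 uniform genes were called. The growth factors Igf2 and Gdf10 had 0.0159 and 0.00702. Markers of other cells made up most of the rest: the macrophage genes C1qa at 0.0218 and C1qc at 0.0243, the pericyte and endothelial adhesion gene Mcam at 0.0186, the mesothelial genes Wt1 at 0.000641 and Msln at 0.0425, and the acinar protease Ctrb1 at 0.00570. The muscle genes Ckm and Acta1 had 0.0138 and 0.00361, the adipocyte hormone Adipoq 0.0343, the myelin gene Mbp 0.0289, the cartilage collagen Col2a1 0.0477, and the globins Hba-a2 and Hbb-b2 0.0185 and 0.0144. Among genes above MEFs in all 6 libraries with the widest ranges, adjusted p was 0.00265 for Cldn5, 0.00422 for Cd36, 0.000474 for Agt, 0.0208 for Il1r2, 0.0130 for Robo4 and 0.000774 for Col6a5. Inmt had 0.00752, with both adipose libraries above muscle and both muscle libraries above pancreas.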

How the results depend on the processing

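Uniformity depended on the threshold and the values more than the differences from MEFs did. The 249 uniform higher genes became 62 at 1.5-fold, 592 at 3-fold, 614 over tissue means, 127 with library totals, 96, 87 and 87 in limma with a pseudocount of 0.1, of 1, and of 1 at 1 FPKM or more, and 133 when both tables were required (an alternative chosen after seeing the data). The 82 lower ones became 22, 156 and 170 under the first 3 of these, 36 at 20 CPM, 124 at 1 CPM and 39 in both tables. Without adipose, muscle or pancreas the higher count was 726, 388 and 449, and the lower count without adipose 206. Uniform genes of any difference numbered 1829 with library totals, 1880 by FPKM range, 1192 at 1.5-fold, 6727 at 3-fold, 7106 over tissue means and 2304 at 20 CPM. Genes differing among tissues numbered 1571, and 2613 by DESeq2, 922 by limma at 1 FPKM and 3155 in reads.

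The 8073 calls were 4310 when tested against a 2-fold change (2544 higher and 1766 lower), 8360 by DESeq2 and 7815 with no filter. The split of 4126 higher and 3947 lower was 2620 and 5925 in limma with a pseudocount of 0.1, 2494 and 6254 with 1, and 1995 and 5701 at 1 FPKM, where the median of all genes moved to log2 -0.68, -0.44 and -0.66. With no filter that median was 0.63. Leaving out 1 library at a time gave 4788 to 10188 calls, 2438 to 5095 higher and 2350 to 5093 lower, 409 to 5738 differing among tissues, 3738 to 7054 uniform, 255 to 455 uniform higher and 65 to 133 uniform lower. The cause of these shifts was not tested. Replicate numbers did not pair the libraries (correlations of deviations between groups -0.156 to 0.347), and with a replicate block 7961 genes were called, 1349 differed among tissues, and 254 and 83 were uniform.

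Of 133 named genes 94 called ones kept direction and call under each of 24 settings. Rxrb turned to log2 -0.0462 (pseudocount 0.1), -0.0349 (1) and -0.0349 (1 FPKM). Of genes level with MEFs, Cd63 turned to -0.313 with library totals and -0.551, -0.550 and -0.550 in limma. Tcf25 turned to -0.447, then -0.686, -0.679 and -0.679, and lay at -0.00088 with no filter, -0.00585 in reads, -0.00682 without adipose and -0.0361 to 0.152 without 1 library. Slc39a7 turned to -0.365, then -0.597, -0.594 and -0.594, and -0.0687 in reads. With 2 libraries a group and a floor of 0.0900 to 0.229 CPM, folds of genes near 0 in MEFs are limited by depth.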

Other observations

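The gene families described here were picked after their values were seen. Of the 8 subunits of the CCT chaperonin, which folds actin and tubulin, 8 were called lower in FAP+ cells and 7 were uniform, with differences from log2 -2.25 to -1.15. Cct2 lay at 73.8 and 99.97 CPM in adipose, 76.2 and 75.8 in muscle and 96.3 and 66.6 in pancreas, against 368 and 293 in MEFs. All 6 FAP+ values were far below both MEF values (log2 -2.02 ± 0.23, adjusted p = 0.000259). Tcp1 differed by log2 -2.17 ± 0.20, and its locus overlaps Mrpl18. Of 18 karyopherin beta genes, which carry proteins through the nuclear pore, 14 were lower and 11 uniform, with differences from log2 -3.28 to 0.45. Of 8 tested genes of the C1q and TNF related family, secreted relatives of adiponectin, 6 were higher and C1qtnf3 was lower, and C1qtnf1, C1qtnf2 and C1qtnf5 were uniform, with differences over the family from log2 -3.94 to 8.45. For all genes tested the shares called were 27.8% higher and 26.6% lower, and 38.8% of those at 5 CPM or more were uniform.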
